A study of Mus musculus with 6 samples.

Results

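The genes described here are 10 that belong to the antioxidant defence of the cell: the superoxide dismutases Sod1 and Sod2, the catalase Cat, the glutathione peroxidases Gpx1 and Gpx4, the peroxiredoxins Prdx1 and Prdx3, the glutamate-cysteine ligase subunits Gclc and Gclm, and Txnip, the inhibitor of thioredoxin. They were taken by symbol from the normalized expression table, in which each name matched exactly 1 row, so that 10 of its 13564 genes are described. The selection rule uses the names alone and no measured value, but the names were chosen with earlier results of these data known. All 10 passed the filter on low counts.

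RNA was sequenced from cultures of naive CD4 T cells of Foxo1TKO mice (n = 3 libraries) and Foxo1Ctrl mice (n = 3 libraries), to ask what the loss of the transcription factor Foxo1 does to the activation of these cells. Each culture held 50000 naive T cells per the labels, an anti-CD3 antibody (clone 145-2C11) at 0.1 µg per ml, which triggers the T-cell receptor complex, and 250000 splenocytes of C57BL/6 CD3eKO mice as antigen presenting cells, and lasted 4 days. Foxo1TKO mice carry loxP-flanked (fl/fl) Foxo1 alleles and a Cd4-driven Cre recombinase, which acts in thymocytes that still carry both CD4 and CD8 and so deletes the gene in CD4 and CD8 T cells alike; Foxo1Ctrl mice carry the same Foxo1 fl/fl alleles without Cre and so retain Foxo1. Both lines are C57BL/6 Foxp3-GFP mice, and the study's young adults are about 3 months old, but the labels give no age for these libraries. The splenocytes lack T cells, were not from Foxo1TKO mice and were of the same kind in both groups. Whether they were removed before RNA extraction, and whether each library came from a separate mouse or culture, is not given in the sources used here, so the p-values measure the spread between these libraries, which may be technical.

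Library totals ran from 14783890 to 19675447 expected read counts. The targeted gene, Foxo1, had 84.7, 46.1 and 114 normalized counts in the Foxo1TKO libraries and 1516, 2266 and 1584 in the Foxo1Ctrl libraries. It was thus far lower in every library labelled Foxo1TKO (log2 fold change -4.46, SE 0.36, adjusted p = 0.000195 by the quasi-likelihood test of edgeR, adjusted by Benjamini-Hochberg). In a principal component analysis, component 1 held 66.0% of the variance and separated the genotypes. On component 2, with 16.7%, Foxo1Ctrl replicate 2 stood apart from the other Foxo1Ctrl libraries, whereas the Foxo1TKO libraries were spread along it. Compared in pairs over all genes by a chi-square of their counts, Foxo1TKO replicate 1 differed more from replicates 2 and 3 than these did from each other. The main results are therefore also given without Foxo1Ctrl replicate 2 and without Foxo1TKO replicate 1. The 10 T-cell markers were high in all libraries, with a summed level of 156436 to 160641 normalized counts in Foxo1TKO and 166922 to 186269 in Foxo1Ctrl. Of these 10, 1 was called lower. Markers of other cells also differed: the 10 B-cell markers summed to 5033 to 6166 in Foxo1TKO and 13050 to 21714 in Foxo1Ctrl. Of 9 B-cell markers tested, 6 were called lower, where 12.4% of all genes tested were, and no B-cell marker was at 0 in all libraries. Ighm made up most of this sum (raw means of 6102 and 15583 counts), and the raw means of the other B-cell markers were also lower in Foxo1TKO. The 5 NK-cell markers summed to 1807 to 2673 and 5716 to 8223, with 2 of 4 tested called lower, beside the same 12.4% of all genes. Klrk1 (raw means of 1560 and 2683 counts) and Klrd1 (889 and 3755) made up most of this sum. Klrb1c was scarce and lower (35.7 and 48), whereas Ncr1 (7 and 4) and Klre1 (17.3 and 11.3) were near the floor and higher in Foxo1TKO. Macrophage markers were near the floor, at 68.7 to 100.04 and 37.5 to 47.3 in sum, and C1qa, C1qc and Mertk were at 0 in every library. The 7 dendritic-cell markers summed to 550 to 635 and 153 to 269, of which Itgax alone was called (means of 412 and 0.714 normalized counts). Zbtb46, with means of 127 and 177, and Xcr1 overlapped between the genotypes, and Flt3, Clec9a, Siglech and Batf3 had at most 9 counts in any library. In sum, the 10 neutrophil markers came to 19.2 to 75.4 and 0 to 3.55, the 9 erythroid markers came to 240 to 392 and 306 to 427, and the 2 CD8 markers to 90.5 to 144 and 143 to 159.5. Only 1 neutrophil marker was tested, and it was called higher. Of 10 proliferation genes, 5 were called higher in Foxo1TKO (12948 to 17122 against 7931 to 11081 in sum), where 11.8% of all genes tested were. In such cultures the paper found by dye dilution that Foxo1-deficient T cells proliferated markedly less. Dye dilution counts divisions and is a measure unlike these RNA levels. The part of these marker differences in the results on the antioxidant genes was not tested, and in bulk RNA fewer cells of a type and less RNA per cell cannot be told apart.

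Activated T cells make superoxide and hydrogen peroxide as by-products of respiration and as signals downstream of the T-cell receptor. Superoxide dismutases turn superoxide into hydrogen peroxide, Sod1 in the cytosol with copper and zinc and Sod2 in mitochondria with manganese. Catalase, glutathione peroxidases and peroxiredoxins then remove the peroxide, the latter 2 at the expense of glutathione and thioredoxin, which are in turn reduced with NADPH. Txnip binds reduced thioredoxin and blocks it, and as an arrestin-like protein it also draws glucose transporters from the cell surface. In other tissues, Foxo factors are known to drive several antioxidant genes, Sod2 and Cat among them.

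Shown first are the stretches upstream of the 2 members that passed the test. Whether the motifs in them bear on those calls was not tested. The 250 bases before the Txnip start site (RefSeq, GRCm38.p6, chr3:96557707-96557956, + strand) are shown because they hold, in capitals, the letters GTAAACA, the core of the site that Foxo and other forkhead factors recognize, beginning at position -121 from the start.

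Txnip: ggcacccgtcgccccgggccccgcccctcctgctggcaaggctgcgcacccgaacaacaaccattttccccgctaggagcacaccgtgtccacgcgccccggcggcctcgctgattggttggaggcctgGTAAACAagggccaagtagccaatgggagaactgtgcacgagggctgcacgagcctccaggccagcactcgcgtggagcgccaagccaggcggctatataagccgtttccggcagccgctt

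The upstream stretch of Prdx1 (RefSeq, GRCm38.p6, chr4:116685349-116685539, + strand, positions -250 to -60 from the start) is shown because it holds, in capitals, a match on the opposite strand to TGACNNNGC, the core of the antioxidant response element bound by Nrf2.

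Prdx1: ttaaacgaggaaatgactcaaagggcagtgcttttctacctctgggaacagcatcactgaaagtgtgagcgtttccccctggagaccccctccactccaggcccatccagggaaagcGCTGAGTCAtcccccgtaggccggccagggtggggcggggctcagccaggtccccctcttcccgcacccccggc

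Promoter windows (250 bases before to 50 after the start) were found for 9 of the 10 members, with 12 windows in all, and 4 motifs were searched on both strands. The forkhead letters GTAAACA were in the Txnip window only among the members, and in 3.65% of all 32851 windows. TGACNNNGC was in the windows of Gclm, Prdx1 and Sod1, and in 12.4% of all windows. The AP-1 site TGACTCA occurred at 2 places in the Prdx1 window, of which that at -131 overlaps the antioxidant element shown, and in 5.2% of all windows. The E-box CACGTG was in none of the members' windows and in 7.15% of all. These matches describe letters and not binding, which was not measured.

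Gpx1 and Gpx4 are selenoproteins: their coding sequence (GRCm38, GENCODE M21) reads through an in-frame TGA, which elsewhere ends a protein, by inserting selenocysteine at the active site. They are the only members with an in-frame TGA before the end of the coding sequence. The 51 bases around that codon, in capitals, are shown to tell these peroxidases from the other members. In Gpx1 it is codon 47, in exon 1 (chr9:108339427-108339477, + strand, codon at 108339451 to 108339453). In Gpx4 it is codon 129 of the longest coding transcript, in exon 3 (chr10:80054713-80054763, + strand, codon at 80054737 to 80054739).

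Gpx1: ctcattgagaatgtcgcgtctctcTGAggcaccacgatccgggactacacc
Gpx4: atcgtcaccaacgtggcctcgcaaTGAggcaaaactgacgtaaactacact

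Of the 10 genes, 2 passed the test at an adjusted p under 0.05: Txnip was 3.26-fold lower in Foxo1TKO, and Prdx1, an abundant cytosolic peroxiredoxin, was 1.48-fold higher. The other 8, among them Sod2 and Cat, did not pass. Over all genes tested, 24.2% passed (11.8% higher and 12.4% lower), so that the share of members called was close to this background. With a fold change over 1.5 required as well, Txnip alone remained, against 23.0% of all genes (11.1% higher and 11.8% lower). At an unadjusted p under 0.05 there were 5 members, 3 higher and 2 lower, where 36.6% of all genes (18.4% higher and 18.3% lower) lay. The median log2 fold change of the 10 members was 0.13, beside 0.01 for all 13691 genes tested, and their median absolute log2 fold change was 0.30, beside 0.46 for all genes. The genotypes did not overlap in 5 members, 3 higher and 2 lower in Foxo1TKO, where 42.7% of all genes tested did not overlap (21.5% higher and 21.2% lower).

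**Figure D1:**
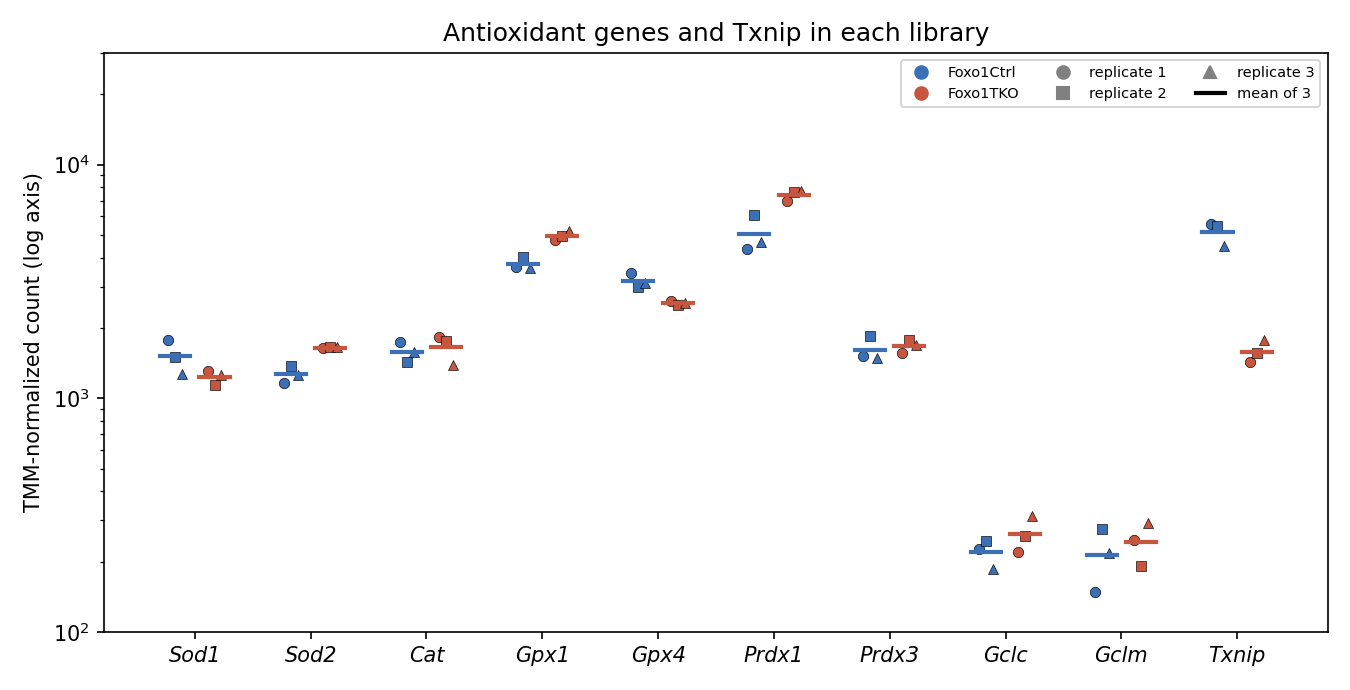
TMM-normalized counts (log axis) of the 9 enzyme genes and Txnip in the 3 Foxo1Ctrl (blue) and 3 Foxo1TKO (red) libraries; symbols mark the replicate and lines the mean of 3. Txnip is the gene with the widest gap between the genotypes, from 1423 to 1768 against 4463 to 5581, while the enzyme genes lie close together or overlap.

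Txnip (ENSMUSG00000038393, chr3:96557957-96561883, + strand, GRCm38) had 1423, 1555 and 1768 normalized counts in the Foxo1TKO libraries and 5581, 5438 and 4463 in the Foxo1Ctrl libraries. All Foxo1TKO libraries lay well below all Foxo1Ctrl libraries. The means were 1582 ± 174 and 5161 ± 608 (SD, n = 3 each), a log2 fold change of -1.71 (SE 0.16, adjusted p = 0.000377 by the quasi-likelihood test of edgeR, adjusted by Benjamini-Hochberg). Among the log2 fold changes of all genes tested it was the 722nd from the lowest. Without Foxo1TKO replicate 1 the log2 fold change was -1.64 (adjusted p = 0.00195), and without Foxo1Ctrl replicate 2 it was -1.66 (adjusted p = 0.000789). Per transcript length, in RSEM's TPM unit, the levels were 51.9, 61.7 and 64.6 against 219, 192 and 161. An antisense gene, Gm15441, overlaps exons of Txnip on the other strand. Whether strand was used in counting is not given in the sources used here, but Gm15441 held only 10.2 to 76.1 expected counts in any library, and the sum of both genes had a log2 ratio of -1.71 with no overlap of the genotypes.

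The 5 genes whose log2 levels followed Txnip most closely over the 6 libraries, among 9211 genes averaging 100 or more normalized counts, were Tent5a, Nup153, Fchsd2, Tnfrsf26 and Rgs2. Their Pearson correlations with Txnip all rounded to 0.998 or 0.999, as a description over libraries that fall into 2 separate genotypes. Tent5a, a non-canonical poly(A) polymerase, had 225, 308 and 351 normalized counts in Foxo1TKO and 2592, 2543 and 1732 in Foxo1Ctrl. Like Txnip it was lowest in Foxo1TKO replicate 1 and, among the Foxo1Ctrl libraries, in replicate 3. Rgs2, a regulator of G-protein signaling, had a fold change of the same size as Txnip (log2 -1.74, SE 0.17, adjusted p = 0.000425 by the same test).

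Prdx1 (ENSMUSG00000028691, chr4:116685544-116700822, + strand) had 7002, 7599 and 7717 normalized counts in Foxo1TKO and 4356, 6087 and 4664 in Foxo1Ctrl. The Foxo1TKO libraries were all above the Foxo1Ctrl libraries, of which replicate 2 was the highest. The means were 7439 ± 384 and 5036 ± 923 (SD, n = 3 each; log2 fold change 0.56, SE 0.17, adjusted p = 0.0432 by the quasi-likelihood test of edgeR, adjusted by Benjamini-Hochberg). The call was close to the threshold. The gene passed without Foxo1Ctrl replicate 2 (log2 fold change 0.73, adjusted p = 0.00600) and did not pass when any other library was left out, with adjusted p of 0.0806 without Foxo1TKO replicate 1, 0.140 and 0.115 without Foxo1TKO replicates 2 and 3, and 0.190 and 0.143 without Foxo1Ctrl replicates 1 and 3. Prdx3 (ENSMUSG00000024997, chr19:60864051-60874556, - strand), the mitochondrial peroxiredoxin, had 1557, 1766 and 1685 normalized counts in Foxo1TKO and 1515, 1837 and 1485 in Foxo1Ctrl. Its genotypes overlapped (log2 fold change 0.05, SE 0.15, adjusted p = 0.841 by the same test).

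Of the superoxide dismutases, neither passed the test. Sod2 (ENSMUSG00000006818, chr17:13006846-13040063, + strand) had 1634, 1651 and 1649 normalized counts in Foxo1TKO and 1162, 1370 and 1262 in Foxo1Ctrl. The Foxo1TKO libraries were nearly equal and all above the Foxo1Ctrl libraries (means 1645 ± 9.14 and 1265 ± 104, SD, n = 3 each; log2 fold change 0.38, SE 0.14, adjusted p = 0.0824 by edgeR's quasi-likelihood test). Without Foxo1Ctrl replicate 2 the value passed (log2 fold change 0.45, adjusted p = 0.0443). Sod2 did not pass when any other library was left out. The adjusted p by the same test was 0.157 without Foxo1TKO replicate 1 and up to 0.294, without Foxo1Ctrl replicate 1. Sod1 (ENSMUSG00000022982, chr16:90220754-90226329, + strand) had 1304, 1141 and 1258 in Foxo1TKO and 1780, 1500 and 1264 in Foxo1Ctrl, so that the genotypes overlapped and Foxo1Ctrl replicate 3 sat among the Foxo1TKO libraries (log2 fold change -0.29, SE 0.17, adjusted p = 0.25 by the same test).

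The glutathione peroxidases had fold changes of opposite sign, neither past the threshold. Gpx1 (ENSMUSG00000063856, chr9:108338903-108340343, + strand), which reduces soluble peroxides, had 4731, 4949 and 5219 normalized counts in Foxo1TKO and 3647, 4002 and 3600 in Foxo1Ctrl. The groups did not overlap (means 4967 ± 244 and 3750 ± 220, SD, n = 3 each; log2 fold change 0.41, SE 0.13, adjusted p = 0.0590 by edgeR's quasi-likelihood test). DESeq2's Wald test placed Gpx1 past the threshold (log2 fold change 0.41, adjusted p = 0.0323), as did leaving out Foxo1Ctrl replicate 2 (0.46, adjusted p = 0.0278). Gpx1 did not pass when any other library was left out. The adjusted p by edgeR's test was 0.102 without Foxo1TKO replicate 1 and up to 0.218, without Foxo1Ctrl replicate 1. Gpx4 (ENSMUSG00000075706, chr10:80047166-80056439, + strand), which reduces lipid peroxides in membranes, had 2597, 2515 and 2552 in Foxo1TKO and 3418, 3001 and 3107 in Foxo1Ctrl. Here too the groups did not overlap, with the Foxo1TKO libraries lower (log2 fold change -0.31, SE 0.13, adjusted p = 0.123 by the same test), although they did overlap as TPM. Reads of Gpx4 are shared with a near-identical copy, Gpx4-ps2, which was assigned 360 to 473 expected counts, and the sum of both had a log2 ratio of -0.33.

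Cat (ENSMUSG00000027187, chr2:103453849-103485160, - strand), the peroxisomal enzyme that splits hydrogen peroxide without a cofactor from the thiol systems, had 1820, 1758 and 1386 normalized counts in Foxo1TKO and 1739, 1423 and 1581 in Foxo1Ctrl. The values of both genotypes ran through each other (log2 fold change 0.07, SE 0.16, adjusted p = 0.811 by edgeR's quasi-likelihood test). The subunits of glutamate-cysteine ligase, which makes the first bond of glutathione, were the least abundant members. Gclc (ENSMUSG00000032350, chr9:77754535-77794485, + strand), the catalytic subunit, had 220, 257 and 313 in Foxo1TKO and 226, 244 and 186 in Foxo1Ctrl (log2 fold change 0.27, SE 0.22, adjusted p = 0.428 by the same test). Gclm (ENSMUSG00000028124, chr3:122245557-122270732, + strand), the modifier subunit, had 246, 191 and 294 in Foxo1TKO and 148, 276 and 217 in Foxo1Ctrl (log2 fold change 0.19, SE 0.28, adjusted p = 0.679 by the same test). Both overlapped between the genotypes in normalized counts. As TPM, Gclc did not overlap (5.25, 5.31 and 5.96 in Foxo1TKO and 4.77, 4.36 and 3.92 in Foxo1Ctrl). Gclm also overlaps Gm17494 on the opposite strand, which held 111 to 204 expected counts, close to those of Gclm itself, so that its values are uncertain.

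**Figure D2:**
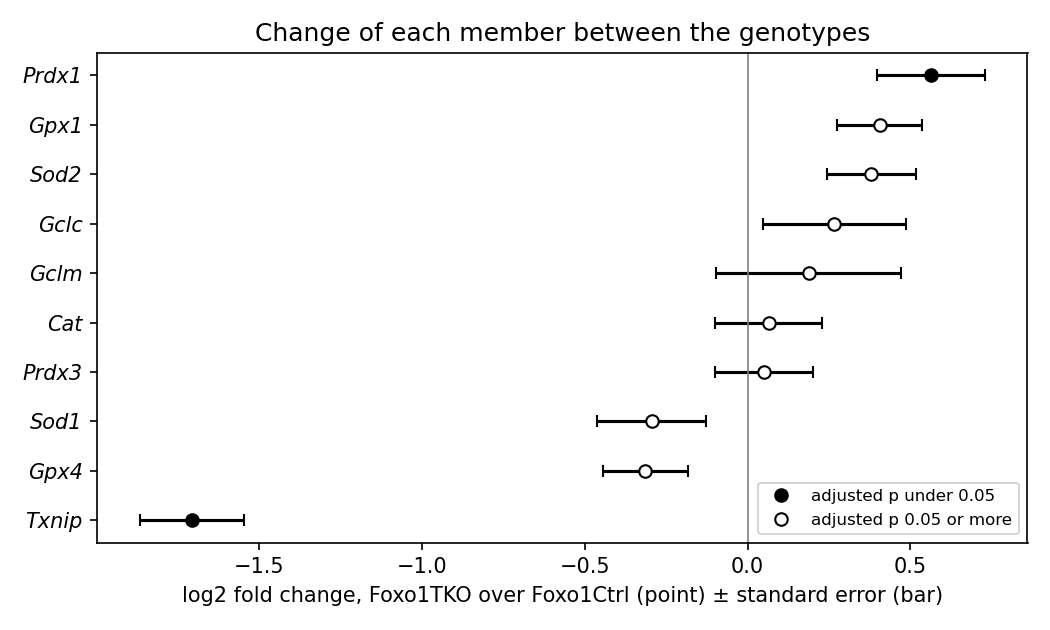
log2 fold change of each of the 10 genes, Foxo1TKO over Foxo1Ctrl (points), with its standard error (bars); filled points have an adjusted p under 0.05 by edgeR's quasi-likelihood test. Txnip at -1.71 and Prdx1 at 0.56 are filled, and the 8 open points lie between -0.31 and 0.41.

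Levels between genes were compared per length, as TPM. In Foxo1TKO the order was Prdx1 (mean 529.97 TPM), Gpx1 (438 TPM), Gpx4 (259 TPM), Sod1 (163 TPM), Sod2 (99.7 TPM), Prdx3 (85.3 TPM), Txnip (59.4 TPM), Cat (45.8 TPM), Gclm (18.7 TPM) and Gclc (5.51 TPM). Neighbours in this order did not overlap over the 3 libraries, except for Txnip and Cat. In Foxo1Ctrl, Prdx1 (343 TPM), Gpx1 (321 TPM) and Gpx4 (314 TPM) overlapped at the top, and Txnip (191 TPM) came next, overlapping with Sod1 (194 TPM). Txnip was thus above Prdx3 (79.0 TPM), Sod2 (71.9 TPM) and Cat (42.1 TPM) in all Foxo1Ctrl libraries and below Prdx3 and Sod2 in all Foxo1TKO libraries. Summed over the 9 enzyme genes, the levels were 1752, 1621 and 1561 TPM in Foxo1TKO and 1459, 1293 and 1402 TPM in Foxo1Ctrl, with no overlap. Abundant genes weigh most in this sum. The means of Prdx1 (529.97 against 343 TPM) and Gpx1 (438 against 321 TPM) were higher in Foxo1TKO, as were those of the less abundant enzymes. Those of Gpx4 (259 against 314 TPM) and Sod1 (163 against 194 TPM) were lower. Of the 9 enzymes, 8 were not called.

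Ratios within a library set enzymes of the same reaction, or Txnip and its target, against each other, and do not depend on the scaling between libraries. The TPM ratio of Txnip to Txn1, the cytosolic thioredoxin, was 0.186, 0.248 and 0.281 in Foxo1TKO and 1.301, 0.922 and 0.891 in Foxo1Ctrl. Transcripts of the inhibitor and its target were therefore at about equal levels in Foxo1Ctrl, and the ratio was 4.36-fold lower in Foxo1TKO. The ratio of the mitochondrial Sod2 to the cytosolic Sod1 was 0.546, 0.692 and 0.622 against 0.302, 0.400 and 0.444, a log2 difference of 0.71. The ratio of Gpx4 to Gpx1 was 0.617, 0.593 and 0.558 against 1.07, 0.829 and 1.02, a log2 difference of -0.72. The ratio of Prdx3 to Prdx1 was 0.162, 0.167 and 0.154 against 0.252, 0.215 and 0.226, a log2 difference of -0.52. These 4 ratios did not overlap between the genotypes, each with p = 0.1 in a two-sided exact permutation test, the smallest that 3 against 3 libraries can give (0.125 adjusted over the 5 pairs compared). None of them can therefore pass a threshold of 0.05. The ratios reuse the levels of the single genes and are no separate evidence. Among single genes tested, 42.7% did not overlap, and the share among other gene pairs was not computed. The ratio of Gclc to Gclm was 0.242, 0.350 and 0.312 against 0.545, 0.266 and 0.214, and overlapped (p = 0.9 in the exact permutation test).

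**Figure D3:**
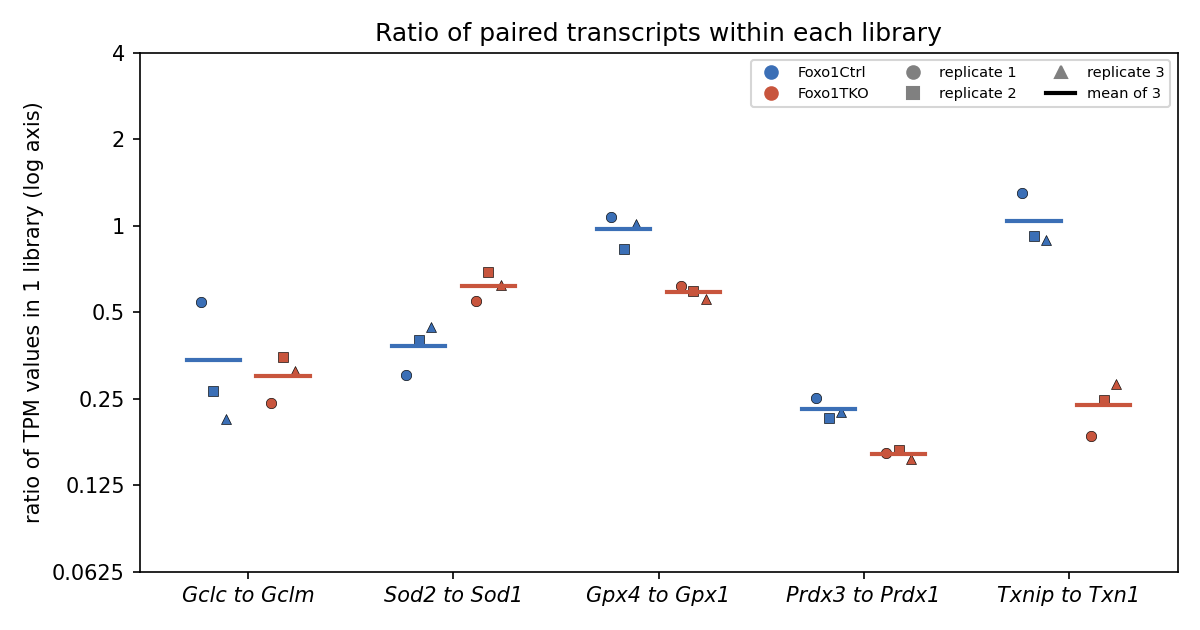
Ratio of TPM values of paired transcripts within each library (log axis), for 3 Foxo1Ctrl (blue) and 3 Foxo1TKO (red) libraries with the mean of 3 as a line. The genotypes are apart for Sod2 to Sod1, Gpx4 to Gpx1, Prdx3 to Prdx1 and Txnip to Txn1, where Foxo1Ctrl averages 1.04 and Foxo1TKO 0.238, and overlap for Gclc to Gclm.

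Several partners of the members passed the test. Ccs, the chaperone that loads copper into Sod1, fell in Foxo1TKO: it had 1253, 1548 and 1623 normalized counts there and 7182, 7027 and 6844 in Foxo1Ctrl (4.76-fold lower, log2 fold change -2.25, SE 0.15, adjusted p = 0.000117 by the quasi-likelihood test of edgeR, adjusted by Benjamini-Hochberg). Of the superoxide dismutases and Ccs, 3 genes were tested and Ccs alone was called, 33.3% of the list beside 24.2% of all genes tested.

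Among 15 tested genes of the thioredoxin and glutaredoxin system, 5 were higher and 1 was lower in Foxo1TKO. These 6 calls made 40% of the list, where 24.2% of all genes tested were called (11.8% higher and 12.4% lower). The list's median log2 fold change was 0.35 beside 0.01 for all genes. Txnrd1, the cytosolic thioredoxin reductase, had 1119, 1247 and 1073 normalized counts in Foxo1TKO and 499, 469.5 and 524 in Foxo1Ctrl, and rose 2.30-fold (log2 fold change 1.20, SE 0.15, adjusted p = 0.00133 by edgeR's quasi-likelihood test). Txn2, the mitochondrial thioredoxin, had 4454, 4455 and 4511 against 2431, 2427 and 2491, a tight separation in both genotypes (log2 fold change 0.87, SE 0.12, adjusted p = 0.00233 by the same test). Txnrd2, its reductase, rose by 0.96 on the log2 scale (SE 0.22, adjusted p = 0.0150 by the same test), a call lost without Foxo1Ctrl replicate 1 (adjusted p = 0.0540). Txn1 did not pass (3363, 3344 and 3273 against 2167, 3232 and 2330; log2 fold change 0.37, SE 0.18, adjusted p = 0.178 by the same test), though it did without Foxo1Ctrl replicate 2 (adjusted p = 0.0153). That was the only alternative fit in which Txn1 passed, with adjusted p of up to 0.502 when another library was left out. Glrx, the cytosolic glutaredoxin, went the other way, with 1188, 1167 and 1314 normalized counts in Foxo1TKO and 4539, 5923 and 4082 in Foxo1Ctrl (3.96-fold lower, log2 fold change -1.99, SE 0.18, adjusted p = 0.000304 by the same test). Glrx5, which serves iron-sulfur cluster assembly in mitochondria, varied widely, at 655, 1636 and 1866 against 74.5, 197 and 580 (log2 fold change 2.28, SE 0.70, adjusted p = 0.0490 by the same test), and kept its call without Foxo1TKO replicate 1 or Foxo1Ctrl replicate 3 but not without any other library (adjusted p of up to 0.132). Glrx3, which acts in iron handling and was named after its values were seen, had a log2 fold change of 0.54 (adjusted p = 0.0393 by the same test). Its call was lost with upper quartile scaling (adjusted p = 0.0564), with no filter (0.0564) and without any single library other than Foxo1Ctrl replicate 2 (up to 0.173). Srxn1, which repairs overoxidized peroxiredoxins, was scarce, with means of 17.8 and 19.8 normalized counts, and did not pass.

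**Figure D4:**
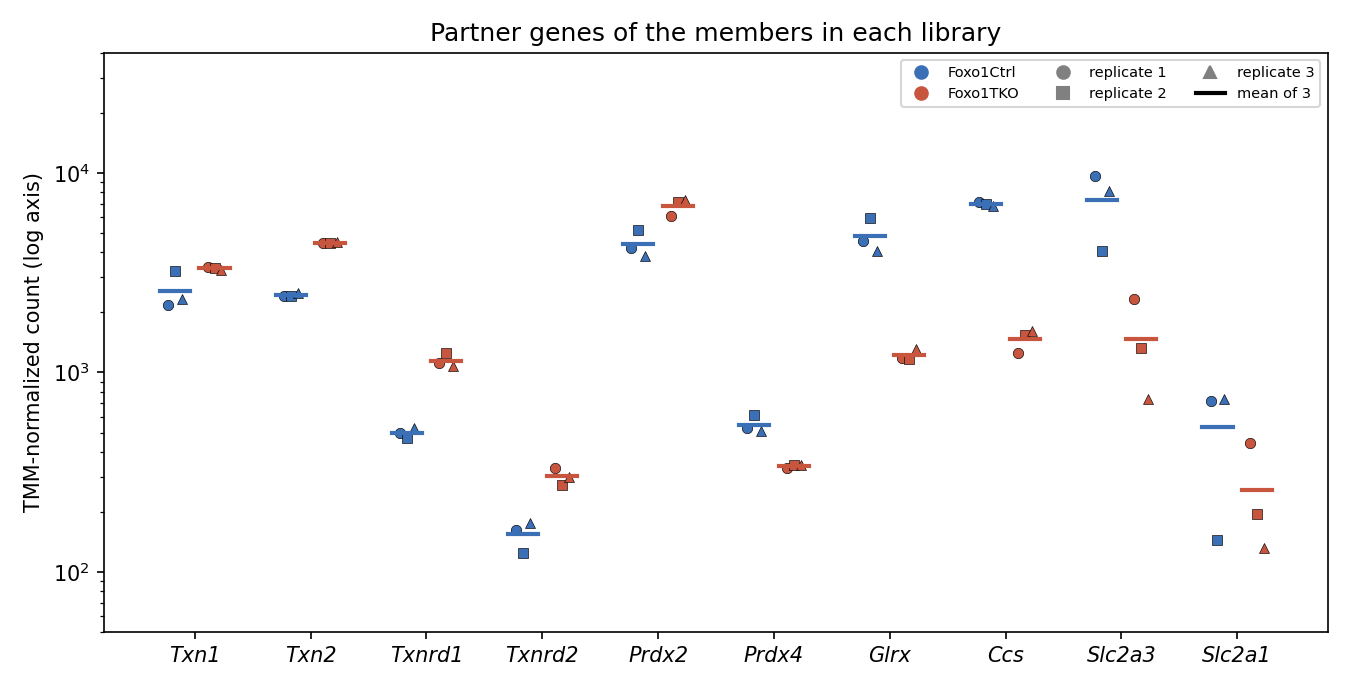
TMM-normalized counts (log axis) of 10 partner genes in the 3 Foxo1Ctrl (blue) and 3 Foxo1TKO (red) libraries, with the mean of 3 as a line. Txn1, Txn2, Txnrd1, Txnrd2 and Prdx2 are higher and Ccs, Glrx, Prdx4 and Slc2a3 lower in every Foxo1TKO library than in any Foxo1Ctrl library, while Slc2a1 overlaps. Txn1 did not pass the test. Several of these genes were named because they were called, and 42.7% of all genes tested did not overlap.

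Of 10 tested genes that remove hydrogen peroxide or lipid peroxides, 2 were higher (Prdx1 and Prdx2) and 2 lower (Prdx4 and Gpx7). Gpx7, at means of 18.4 and 71.0 normalized counts, was named after its values were seen. The 4 calls made 40% of the list, beside 24.2% of all genes tested, and the list's median log2 fold change was 0.03. Prdx2, the other abundant cytosolic peroxiredoxin, had 6071, 7181 and 7297 normalized counts in Foxo1TKO and 4219, 5191 and 3837 in Foxo1Ctrl (log2 fold change 0.63, SE 0.17, adjusted p = 0.0281 by edgeR's quasi-likelihood test). Prdx4, the peroxiredoxin of the endoplasmic reticulum, had 330, 342 and 342 against 525, 611 and 507 (log2 fold change -0.70, SE 0.17, adjusted p = 0.0191 by the same test). Leaving out a library in turn, both calls were lost in 4 of 6 fits, those without Foxo1TKO replicate 2, Foxo1TKO replicate 3 or Foxo1Ctrl replicate 1 for both, without Foxo1Ctrl replicate 3 for Prdx2 and without Foxo1TKO replicate 1 for Prdx4, at adjusted p of up to 0.123 and 0.0898. The call of Gpx7 was lost without Foxo1TKO replicate 3 (adjusted p = 0.0502 by the same test) or Foxo1Ctrl replicate 1 (0.0561). Prdx5 and Prdx6, found in mitochondria and cytosol, had means of 3725 and 3300 normalized counts in Foxo1TKO and 3724 and 3283 in Foxo1Ctrl and overlapped.

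For glutathione, 20 genes were tested, of which 2 were higher and 3 lower, 25% of the list beside 24.2% of all genes tested. None of the enzymes that make or reduce glutathione passed. Beside Gclc and Gclm, these were the synthetase Gss (log2 fold change 0.18, SE 0.25, adjusted p = 0.646 by edgeR's quasi-likelihood test) and the reductase Gsr (316, 445 and 404 normalized counts against 202, 280 and 312; log2 fold change 0.55, SE 0.23, adjusted p = 0.129 by the same test). The 5 called genes were conjugating enzymes. Gsta4 rose by 1.37 (SE 0.27) and Gstt2 fell by 1.47 (SE 0.17) on the log2 scale, both in every fit of 5 libraries. Gstz1 (log2 fold change 0.93), Mgst2 (-1.10) and the scarce Gstt1 (-1.66, named after its values were seen) kept their calls in 3, 1 and 1 of those 6 fits, Gstz1 without Foxo1TKO replicate 1 or Foxo1Ctrl replicate 2 or 3, the others without Foxo1Ctrl replicate 3 only. In the other fits the adjusted p rose to at most 0.0746, 0.0816 and 0.145. Gstt1 was also lost with limma on the deposited signal (log2 fold change -1.20 at pseudocount 1 and -0.80 at pseudocount 10, adjusted p = 0.148 and 0.131), with the effective length offset (-1.38, adjusted p = 0.120) and with the replicate block (-1.59, adjusted p = 0.0840).

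The regulators of the antioxidant response did not pass. Nfe2l2, which encodes Nrf2, had 1066, 1287 and 1116 normalized counts in Foxo1TKO and 1607, 1431 and 1533 in Foxo1Ctrl, without overlap (log2 fold change -0.40, SE 0.15, adjusted p = 0.0857 by edgeR's quasi-likelihood test). Keap1, which marks Nrf2 for degradation, had means of 412 and 409.6 normalized counts. Of 21 tested Nrf2 regulators and targets, 3 were higher (Prdx1, Txnrd1 and Taldo1) and 1, Osgin1, was lower, at means of 6.08 and 31.1 normalized counts and named after its values were seen. The 4 calls make 19.0% of the list, below the 24.2% of all genes tested. Osgin1 lost its call without Foxo1TKO replicate 2 or 3 or Foxo1Ctrl replicate 1 or 3 (adjusted p of up to 0.127 by the same test), and its log2 fold change of -2.29 was -1.23 with limma at pseudocount 10. Taldo1, transaldolase of the pentose phosphate pathway, was 1.44-fold higher (adjusted p = 0.0457 by the same test), a call lost in all 6 fits of 5 libraries (adjusted p of 0.0602 to 0.146), with no filter (0.0606), with the effective length offset (0.0547) and with the replicate block (0.0529).

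Of 15 tested genes listed under NADPH supply, 2 were higher and 3 lower, 33.3% of the list beside 24.2% of all genes tested. How far each listed enzyme makes NADPH rather than NADH was not measured. The mitochondrial enzymes Idh2 (log2 fold change -1.04, SE 0.19, adjusted p = 0.00712 by edgeR's quasi-likelihood test), Me2 (-0.94, SE 0.17, adjusted p = 0.00686) and Mthfd2 (-0.66, SE 0.14, adjusted p = 0.0123) fell. Mthfd1, a cytosolic enzyme of the same folate pathway as Mthfd2, rose by 1.60 (SE 0.38, adjusted p = 0.0187 by the same test). The calls of Idh2 and Me2 held in all 6 fits of 5 libraries, whereas those of Mthfd2 (without Foxo1TKO replicate 2 or 3, adjusted p of up to 0.0783) and Mthfd1 (without Foxo1TKO replicate 2 or Foxo1Ctrl replicate 1, up to 0.0517) did not.

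Around Txnip, 10 genes of its family, its regulators and glucose transport were tested, and Txnip and Slc2a3 were the 2 called, both lower. They made 20% of the list, below the 24.2% of all genes tested. Slc2a3, a glucose transporter of high affinity, had 2325, 1330 and 738 normalized counts in Foxo1TKO and 9695, 4071 and 8156 in Foxo1Ctrl (4.99-fold lower, log2 fold change -2.32, SE 0.46, adjusted p = 0.00944 by edgeR's quasi-likelihood test). Without Foxo1TKO replicate 2 the adjusted p was 0.0518. Slc2a1, the main glucose transporter of activated T cells, was at 443, 196 and 132 against 719, 144 and 736. Foxo1Ctrl replicate 2 lay among the Foxo1TKO libraries (log2 fold change -1.05, SE 0.64, adjusted p = 0.278 by the same test). Mlxip and Mlx, subunits of the glucose sensor that drives Txnip, had log2 fold changes of -0.21 and 0.16 and overlapped. Arrdc4, the relative of Txnip under the same sensor, was at 136, 215 and 229 against 122, 117 and 308, without a separation of the genotypes (log2 fold change 0.08, SE 0.42, adjusted p = 0.916 by the same test).

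Of the 12 tested antioxidant and stress genes that are described as Foxo targets in other tissues, 1 was higher, Txnrd2, and 5 were lower. These 6 calls made 50% of the list, beside 24.2% of all genes tested. The list was chosen with earlier results of these data known, so this share is a description and not a test. The members on the list, Sod2, Cat and Prdx3, were not among the called genes. Bnip3, a mitophagy receptor, had 588, 408 and 549 normalized counts in Foxo1TKO and 4172, 4830 and 3366 in Foxo1Ctrl (8.005-fold lower, SE of the log2 fold change 0.21, adjusted p = 0.000128 by edgeR's quasi-likelihood test). Selenop, the secreted selenium carrier, had 1408, 1620 and 1820 against 8395, 8735 and 7334 (5.05-fold lower, log2 fold change -2.34, SE 0.16, adjusted p = 0.000120 by the same test). Cited2, a transcriptional coregulator, fell by 1.14 on the log2 scale (SE 0.20). The calls of these 3 genes held in all 6 fits of 5 libraries. Sesn1 (log2 fold change -0.68) and Sesn3 (-0.58), stress-responsive sestrins, were named after their values were seen and kept theirs in 2 and 3 of the 6 fits. Sesn1 was lost without Foxo1TKO replicate 1 or 2 or Foxo1Ctrl replicate 1 or 3 (adjusted p of up to 0.0904), and Sesn3 without Foxo1TKO replicate 1 or 2 or Foxo1Ctrl replicate 3 (up to 0.104). With the effective length of each library taken into account, Sesn3 did not pass: its log2 fold change was -0.17 with the length offset (adjusted p = 0.688) and -0.16 with limma on the deposited signal at both pseudocounts (adjusted p = 0.698 and 0.693). The list's median log2 fold change was -0.05.

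Gpx1 and Gpx4 share the selenocysteine codon shown above with the other selenoproteins. Of 23 tested genes of selenoproteins and their synthesis, 3 were higher (Txnrd1, Txnrd2 and Selenoi) and 3 lower (Selenop, Selenot and the scarce Selenom, the last named after its values were seen), 26.1% of the list, close to the 24.2% of all genes tested. Selenoi had a log2 fold change of 0.71 (SE 0.17, adjusted p = 0.0191 by edgeR's quasi-likelihood test) and Selenot of -0.69 (SE 0.19, adjusted p = 0.0314), and these calls held in 2 (without Foxo1TKO replicate 1 or Foxo1Ctrl replicate 2) and 1 (without Foxo1Ctrl replicate 2) of the 6 fits of 5 libraries, with adjusted p of up to 0.0950 and 0.115 in the rest. Selenom (log2 fold change -1.90) lost its call with the replicate block (adjusted p = 0.0626 by the same test) and without any Foxo1TKO library or Foxo1Ctrl replicate 2 (up to 0.118), and its log2 fold change was -1.06 with limma at pseudocount 10. Of 10 tested producers of superoxide and hydrogen peroxide, 20% were called, below the 24.2% of all genes tested, and these 2 were lower. These were Ero1l, the oxidase of the endoplasmic reticulum (log2 fold change -0.67, SE 0.18, adjusted p = 0.0295 by the same test), and Cybb, the phagocyte NADPH oxidase subunit, also expressed by B cells, at means of 24.3 ± 15.5 and 83.1 ± 5.80 normalized counts (SD, n = 3 each; log2 fold change -1.75, adjusted p = 0.0449 by the same test). Each call held in 1 of the 6 fits of 5 libraries, without Foxo1TKO replicate 1 for Ero1l and without Foxo1TKO replicate 3 for Cybb, with adjusted p of up to 0.123 and 0.111 in the rest. Cybb was also lost with the effective length offset (adjusted p = 0.0509).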

How the data were processed

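Per the labels and the methods, the authors aligned reads with STAR 2.7.6a to Ensembl GRCm38 and deposited RSEM 1.3.1 expected counts, TPM and FPKM per gene (FPKM was not used), together with a table of normalized signal. Tested on the files, this deposited signal equals rounded expected counts over a size factor and over the gene's relative effective length. Trimming and strandedness are not given in the sources used here. The labels give 50000 T cells per culture, and the methods give another number.

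Expected counts were rounded. The 13691 genes that reached 10 counts in 3 or more libraries were tested with edgeR 4.0.16 in R 4.3.3 (TMM, glmQLFit and glmQLFTest, a genotype term alone, p-values adjusted by Benjamini-Hochberg over the 13691 genes, called at adjusted p under 0.05). Normalized counts are on the TMM scale at the mean library size. RSEM divides reads shared between loci, so non-whole counts occurred for Sod1, Sod2, Gpx4, Prdx1, Gclm and Txnip. Alternatives were DESeq2 1.42.0 (Wald test and size factors), upper quartile scaling, other filters, an effective length offset, the replicate number as a block, limma 3.58.1 on log2(deposited signal + 1 or 10), a fold threshold of 1.5, and each library left out. Ratios used exact permutation tests (scipy 1.17.1). The tests were tested on simulated data.

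The members and the gene lists were chosen with earlier results of these data known. The genes named are the 10 members, Foxo1, their direct partners, up to 3 genes called in each direction per list averaging 50 or more normalized counts, and the 5 most like Txnip. Outside this rule, Glrx3, Gpx7, Gstt1, Osgin1, Selenom, Sesn1 and Sesn3 were named after their values were seen. Positions come from GENCODE M21 and promoters from RefSeq. Libraries of a genotype differed by far more than sampling noise, so none was counted as a duplicate.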

Additional observations from a re-analysis of the deposited data

How the results depend on the processing

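The lower level of Txnip passed in all 15 alternative fits, with a log2 fold change of -1.81 to -1.64 when a library was left out. Prdx1 was no longer past the threshold with DESeq2 size factors (log2 fold change 0.56), upper quartile scaling (0.55) or no filter (0.57), and ran from 0.44 to 0.73 without a library. Gpx1 passed by DESeq2's Wald test (0.41), and ran from 0.36 to 0.46 and Sod2 from 0.30 to 0.45 without a library. The number of members called higher was thus 2 by DESeq2, 0 with DESeq2 size factors, upper quartile scaling, no filter or a fold over 1.5, and 0 to 3 without a library (3 at an unadjusted p under 0.05 by edgeR with all libraries). Members near 0 changed sign without a library: Cat ran from -0.0087 (without Foxo1TKO replicate 1) to 0.19, Prdx3 from -0.020 (Foxo1Ctrl replicate 1, and -0.014 without Foxo1Ctrl replicate 3) to 0.16 and Gclm from -0.045 (Foxo1Ctrl replicate 1) to 0.42. The log2 difference in the ratio of Gclc to Gclm, -0.08, ran from -0.35 to 0.32 without a library, and was above 0 without Foxo1TKO replicate 1 (0.075) or Foxo1Ctrl replicate 1. The cause was not tested, beyond fits without a library holding fewer samples.

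Over all genes, 657 to 1832 were called higher (1613 with all libraries) and 933 to 1599 lower (1695) without a library, with the fewest in both directions without Foxo1TKO replicate 2. Without a library, the lists had 1 to 2 calls for superoxide dismutases and Ccs, 0 to 5 for peroxide removal, 3 to 6 for thioredoxin and glutaredoxin, 2 to 5 for glutathione, 1 to 3 for Nrf2, 2 to 4 for NADPH, 1 to 3 for the Txnip family, 3 to 8 for selenoproteins and 0 to 3 for peroxide producers. The Nrf2 list had 2 calls with no filter or a fold over 1.5, and the producers had 4 by DESeq2. Same-numbered libraries of the 2 genotypes did not deviate together in every pair (correlations 0.43, 0.20 and -0.11). Deviations among 3 libraries of a genotype depend on each other, so these values cannot settle whether libraries were paired by experiment. The paper used paired tests for protein measures of such cultures, and pairing of these libraries is not given. The numbers are used here as names of libraries. With the replicate number as a block, the producers had 5 calls, Prdx1 kept its call (log2 fold change 0.58, adjusted p = 0.0395 by edgeR) and no other member's call changed.

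Of the 50 other named genes, 38 were called. Many of them were named because they were called or followed Txnip, so this share cannot be read against the 24.2% of all genes tested. None of the 38 changed sign, and 16 were called in all fits. With the block, the calls of Taldo1, Gstt1 and Selenom were lost (adjusted p = 0.0529, 0.0840 and 0.0626 by edgeR). Among those not called, signs turned for Srxn1 (limma 0.35 and 0.25, length offset 0.47, and -0.96 to 0.35 without a library), Keap1 (replicate block -0.032, and -0.30 to 0.19 without a library), Prdx5 (upper quartile -0.011, limma -0.034 at both pseudocounts, length offset -0.045, and -0.070 to 0.065 without a library), Prdx6 (-0.081 to 0.11 without a library) and Arrdc4 (-0.16 to 0.69 without a library). With 3 libraries per genotype, members that missed the threshold are not shown to be equal, and mean counts under 20, as for Srxn1, limit what can be seen.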
